A study of Homo sapiens with 6 samples.

Results

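The genes described here belong to the integrated stress response, the program that runs from the kinases of the translation factor eIF2alpha through the transcription factor ATF4 to its target genes. The set is a list of gene names taken from the known pathway, drawn up when earlier results of these data were known: the 4 eIF2alpha kinases, the 2 regulatory subunits of the eIF2alpha phosphatase, ATF4 and related transcription factors, and ATF4 targets that include the enzymes of serine and proline synthesis. Aminoacyl-tRNA synthetases and amino acid transporters were left out of it. All 34 named genes had a row among the 62754 genes of the deposited tables, and 31 of them entered the test.

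RNA came from HUDEP-2 cells, an immortalised human erythroid line from cord blood whose growth depends on a doxycycline-induced viral oncogene cassette. Each group had 3 libraries, titled as biological replicates 1 to 3, and the medium of all 6 held 3 units/ml erythropoietin, 50 ng/ml stem cell factor, 1e-06 M dexamethasone (a glucocorticoid) and 1 µg/ml doxycycline. The cells received a lentiviral shRNA, either the hairpin labelled MEN1sh2 against MEN1, which encodes the MLL1 cofactor menin, or a non-targeting hairpin (labelled Controlsh, genotype WT). Puromycin, an inhibitor of protein synthesis used for selection, was present at 2 µg/ml for 48 h beginning 24 h after infection in both groups, and the profiled time was 72 h. The labels name a single MEN1 hairpin, so effects of menin loss and off-target effects cannot be told apart, and no untransduced or puromycin-free culture was analysed here.

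In the integrated stress response, 4 kinases that each sense a different stress phosphorylate eIF2alpha: EIF2AK1 (HRI) senses heme shortage and mitochondrial stress, EIF2AK2 (PKR) double-stranded RNA, EIF2AK3 (PERK) unfolded protein in the endoplasmic reticulum, and EIF2AK4 (GCN2) uncharged tRNA. Phosphorylated eIF2alpha inhibits its own exchange factor eIF2B, so that general translation falls while the ATF4 message, with its upstream reading frames, is translated more. ATF4 then raises genes of amino acid supply, further stress factors such as CHOP (DDIT3), and feedback regulators that restore translation. Erythroid precursors depend on HRI to match globin synthesis to heme, and HRI is also known as a regulator of fetal hemoglobin in adult-type erythroid cells. Kinase activity, eIF2alpha phosphorylation and protein levels were not measured; all values below are RNA levels.

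Values are in TPM, a share of each library that is also scaled by transcript length, and are given for replicates 1, 2 and 3, the MEN1 shRNA before the control. Fold changes are differences of mean log2(TPM + 1), a scale that understates the change of genes at low levels, and their p-values measure the spread between these libraries. MEN1 itself measured 6.29, 6.44 and 6.88 TPM under its shRNA, beside 41.2, 39.6 and 37.1 TPM, which leaves 16.6% of the control mean (log2 fold change -2.42, SE 0.0803, adjusted p 8.5e-06). By the ratio of deposited coverage to FPKM, the libraries held 5.56 to 10.8 gigabases of aligned sequence. All 14 erythroid markers examined were at 1 TPM or more in every library, and their summed level was 98900 to 111000 TPM under the MEN1 shRNA and 56800 to 63000 TPM in the controls. Nearly all of that sum came from the globin genes HBB, HBA1 and HBA2, whereas GATA1, KLF1 and EPOR did not pass the test (ratios of 1.04, 0.963 and 1.01). Markers of other blood and tissue types summed to 36.3 TPM or less in each type apart from the epithelial one, which stood at 125 to 144 TPM under the MEN1 shRNA and 235 to 248 TPM in the controls and consisted almost wholly of EPCAM, a gene that erythroid precursors also express. The T cell sum was 3.09 to 5.65 TPM against 0.0709 to 0.816 TPM and came from CD3D; CD3E and CD2 were below 1 TPM throughout. PF4 and PPBP of megakaryocytes and S100A8 of granulocytes were at 0 in all libraries. The part of these shifts in the results below was not tested, and in bulk RNA a change in the number of cells of a type and a change in RNA per cell cannot be told apart.

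Of the 31 tested members, 17 rose and 7 fell with the MEN1 shRNA (adjusted p under 0.05 in limma), and 7 did not pass. Rises made up 54.8% of the tested members, beside 22.1% of all 14294 genes tested, and falls made up 22.6%, beside 31.5% of all genes. In either direction 77.4% passed, beside 53.6% of all genes. Because the list was drawn up with such results in view, these shares describe it and are not independent support. The median log2 fold change was 0.46 over the members and -0.07 over all genes. In 24 members (77.4%) the 3 libraries of one group lay wholly above the 3 of the other, as they did in 61.8% of all genes. On the log2(TPM + 1) scale, 4 members passed with a change of at least 2-fold: SESN2, ATF3, DDIT3 and CHAC1, all upward. They are 12.9% of those tested, close to the 11.9% of all genes that met both criteria. TRIB3, with a ratio of mean TPM of 2.04, fell short on that scale (log2 fold change 0.91). Genes entered the test at 1 TPM or above in 3 or more libraries; 30 of the 31 members reached that level in all 6 libraries and STC2 in 4.

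**Figure D1:**
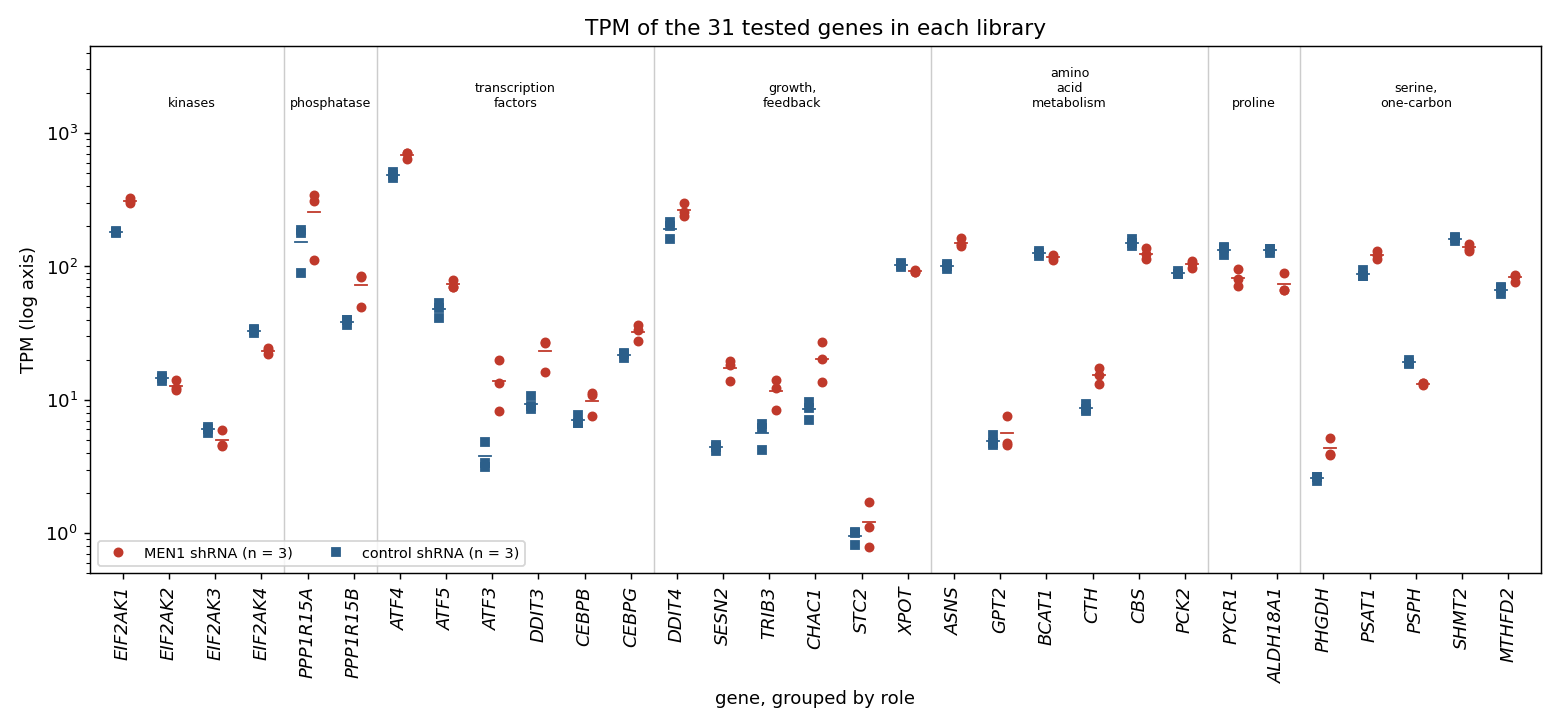
TPM of the 31 tested members in each library on a log axis, control shRNA as blue squares and MEN1 shRNA as red circles, with a short line at each group mean (n = 3 each); genes are in blocks by role. ATF4 is the most abundant member in both groups, EIF2AK1 and DDIT4 follow, and the points of PPP1R15A are spread over 90 to 342 TPM.

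ATF4 dimers bind composite C/EBP-ATF response elements, whose shared letters are TGATGNAA (N is any base). RefSeq promoters on GRCh38.p14, 250 bases before to 50 bases after a transcription start, were searched for these letters on both strands, and 28 of the 34 members matched the promoter table by symbol; EIF2AK1, NUPR1, GPT2, PYCR1, PSPH and SHMT2 did not. A match was present in 7 of the 28 members (25.0%), in 1217 of all 27305 genes in the table (4.46%) and in 234 of the 9652 tested genes found in it (2.42%). Counted by promoter, since many genes have several, the letters were in 7 of 46 member promoters (15.2%) and 1270 of all 35116 (3.62%). Because many of the members were listed as known ATF4 targets, this share is a description of the list and not independent support. The 16 members that rose and were in the table held 5 of the 7 matches (31.2% of the 16, beside 25.0% of all 28). BCAT1 and JDP2 held the others, and the 4 members that fell and were in the table held none. Whether a match goes with the direction of change was not tested.

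The 5 promoters of members that rose and carried a match are printed so that the position of the element can be seen beside the expression values given further on. They are written 5′ to 3′ on the strand of the gene, with the match in capitals. The windows are ASNS (chr7:97872359-97872658, minus strand), ATF3 (chr1:212565157-212565456, plus strand), CEBPG (chr19:33373863-33374162, plus strand), CHAC1 (chr15:40953221-40953520, plus strand) and PPP1R15B (chr1:204411768-204412067, minus strand). The match began at position -68 in ASNS, -191 in ATF3, -42 in CEBPG, -209 in CHAC1 and -227 in PPP1R15B, where -1 is the base just before the start.
ASNS: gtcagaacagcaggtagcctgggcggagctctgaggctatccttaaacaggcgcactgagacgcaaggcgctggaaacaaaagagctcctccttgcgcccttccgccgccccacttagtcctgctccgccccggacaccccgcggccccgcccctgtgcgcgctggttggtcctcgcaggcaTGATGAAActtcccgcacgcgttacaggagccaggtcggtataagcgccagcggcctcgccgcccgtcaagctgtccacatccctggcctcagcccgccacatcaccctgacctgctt
ATF3: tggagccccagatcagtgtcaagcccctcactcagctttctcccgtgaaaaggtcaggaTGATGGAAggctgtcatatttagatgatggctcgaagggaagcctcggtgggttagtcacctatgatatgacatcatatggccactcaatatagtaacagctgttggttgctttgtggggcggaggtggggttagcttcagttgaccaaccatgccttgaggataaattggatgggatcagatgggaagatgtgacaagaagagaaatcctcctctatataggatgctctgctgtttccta
CEBPG: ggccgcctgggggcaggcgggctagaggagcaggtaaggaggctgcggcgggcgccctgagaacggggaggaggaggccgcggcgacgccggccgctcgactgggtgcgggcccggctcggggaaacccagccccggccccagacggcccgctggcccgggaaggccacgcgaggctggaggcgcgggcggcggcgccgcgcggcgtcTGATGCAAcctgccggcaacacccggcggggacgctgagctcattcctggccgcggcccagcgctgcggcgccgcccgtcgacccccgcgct
CHAC1: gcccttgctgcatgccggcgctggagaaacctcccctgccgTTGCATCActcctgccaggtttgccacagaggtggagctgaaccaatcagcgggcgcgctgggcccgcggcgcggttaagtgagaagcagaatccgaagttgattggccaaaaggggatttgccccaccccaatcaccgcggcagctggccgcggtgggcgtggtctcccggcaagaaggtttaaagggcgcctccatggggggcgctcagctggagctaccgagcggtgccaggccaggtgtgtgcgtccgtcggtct
PPP1R15B: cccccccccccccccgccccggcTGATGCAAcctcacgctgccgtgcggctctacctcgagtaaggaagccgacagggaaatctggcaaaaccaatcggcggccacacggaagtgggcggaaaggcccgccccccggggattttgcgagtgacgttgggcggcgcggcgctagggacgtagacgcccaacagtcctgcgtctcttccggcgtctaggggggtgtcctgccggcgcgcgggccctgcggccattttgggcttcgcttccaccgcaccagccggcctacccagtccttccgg

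The ASNS match, TGATGAAA, lies in a promoter that is a textbook example of amino acid control of transcription. CEBPG and PPP1R15B carried TGATGCAA, ATF3 carried TGATGGAA, and CHAC1 carried TTGCATCA, which is the same element read on the opposite strand. ASNS, ATF3 and CEBPG each have a second RefSeq promoter in the table, and that one held no match. No match in a window of this length says only that these letters are not in it.

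Among the kinases the genes moved in opposite directions, with EIF2AK1 as the single riser. EIF2AK1 (ENSG00000086232, hg38 chromosome 7, 6022247 to 6059175, minus strand) was at 301, 310 and 325 TPM in MEN1 shRNA replicates 1, 2 and 3, beside 181, 185 and 177 TPM in the controls. The groups were far apart relative to their spread, 312 ± 12.3 against 181 ± 3.97 TPM (SD, n = 3 each), a ratio of 1.73 (log2 fold change 0.78, SE 0.0533, adjusted p 3.9e-05). AIMP2, which overlaps it on the opposite strand, stood at 75.9, 74.5 and 76.2 TPM beside 85.0, 81.9 and 87.3 TPM. EIF2AK4, the amino acid sensor GCN2 (chromosome 15, 39934115 to 40035591), fell from 31.5, 33.9 and 33.2 TPM in the controls to 24.4, 22.0 and 23.7 TPM (a log2 fold change -0.48, SE 0.0715, adjusted p 0.001), again without overlap.

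The other kinases did not pass the test. EIF2AK2 was at 14.2, 11.8 and 12.2 TPM against 14.6, 13.8 and 15.1 TPM (log2 fold change -0.18, SE 0.0959, adjusted p 0.156). EIF2AK3 was the least abundant kinase, at 5.97, 4.58 and 4.53 TPM against 5.68, 6.27 and 6.04 TPM (log2 fold change -0.22, SE 0.127, adjusted p 0.177). In both genes MEN1 shRNA replicate 1 lay at the control level and replicates 2 and 3 below it. Without replicate 1 both passed, EIF2AK2 at -0.26 (adjusted p 0.0432) and EIF2AK3 at -0.33 (adjusted p 0.0419).

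EIF2AK1 was already the main kinase message in control cells. It made up 77.8%, 77.4% and 76.5% of the summed TPM of the 4 kinases in the controls and 87.1%, 89.0% and 89.0% with the MEN1 shRNA. The mean share was 88.3% ± 1.07 against 77.2% ± 0.654, a difference of 11.1 percentage points, with p = 0.1 in an exact permutation test (2-sided), which is the lowest value possible with 3 libraries a group.

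PPP1R15A (GADD34) and PPP1R15B (CReP) guide protein phosphatase 1 to eIF2alpha; the first is the stress-induced feedback subunit and the second acts constitutively. PPP1R15B (chromosome 1, 204396492 to 204411887) was at 49.5, 83.9 and 84.8 TPM under the MEN1 shRNA and 36.3, 40.0 and 39.6 TPM in the controls, and rose by 0.86 on the log2 scale (SE 0.194, adjusted p 0.00725). Its 3 MEN1 shRNA libraries were all above the controls, but replicate 1 stood nearer to them than to replicates 2 and 3.

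PPP1R15A (chromosome 19, 48872212 to 48876059) had the widest spread within the MEN1 shRNA group of the 31 tested members. Its level was 308, 342 and 111 TPM under the MEN1 shRNA and in the controls at 189, 90 and 177 TPM, so the highest value within the MEN1 shRNA group was 3.08 times the lowest and the groups overlapped. The log2 fold change of 0.65 (SE 0.453, adjusted p 0.266) did not pass. The value depended on which library was left out: it was 1.16 without MEN1 shRNA replicate 3 (adjusted p 0.0192), 0.43 without MEN1 shRNA replicate 1 (0.523), 0.35 without MEN1 shRNA replicate 2 (0.58) and 0.31 without control replicate 2 (0.613).

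Of the 6 transcription factors tested, ATF4, ATF5, ATF3, DDIT3 and CEBPG rose (83.3%, beside 22.1% of all genes) and none fell. The median log2 fold change of the 6 was 0.58. ATF4, the central effector (ENSG00000128272, chromosome 22, 39519695 to 39522683, plus strand), had the highest level of all members, 634, 715 and 713 TPM with the MEN1 shRNA against 484, 464 and 513 TPM. Its means were 687 ± 46.1 and 487 ± 24.4 TPM, a ratio of 1.41 (log2 fold change 0.50, SE 0.0686, adjusted p 0.000688). All 3 MEN1 shRNA libraries were above all controls.

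ATF5, a related factor whose message is also controlled through eIF2alpha and which serves the mitochondrial stress response, was at 70.4, 70.2 and 79.5 TPM against 48.8, 41.0 and 53.5 TPM (log2 fold change 0.61, SE 0.105, adjusted p 0.00188). CEBPG, a C/EBP partner with which ATF4 binds the composite element, was at 27.5, 33.3 and 36.3 TPM against 22.0, 20.5 and 22.5 TPM (log2 fold change 0.55, SE 0.108, adjusted p 0.0037). Neither gene overlapped between groups, and both changed by about as much as ATF4.

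The stress-induced factors ATF3 and DDIT3 changed more, from lower levels. ATF3 (chromosome 1, 212565334 to 212620777), an early ATF4 target that can repress transcription, was at 8.22, 19.9 and 13.4 TPM under the MEN1 shRNA and 4.81, 3.16 and 3.35 TPM in the controls (log2 fold change 1.58, SE 0.287, adjusted p 0.00256). The deposited coverage of ATF3 was 0.748 to 7.6 reads per base, low beside most members. DDIT3, which encodes the pro-apoptotic factor CHOP (chromosome 12, 57516588 to 57521737, minus strand), was at 16.2, 26.9 and 27.1 TPM against 8.92, 8.57 and 10.6 TPM, a ratio of 2.5 (log2 fold change 1.21, SE 0.195, adjusted p 0.00142). The groups were separate in both genes, and replicate 1 was again the MEN1 shRNA library nearest the controls.

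DDIT3 lies opposite MARS1, whose row stood at 266, 297 and 259 TPM against 189, 173 and 204 TPM. The libraries were made strand-specifically, but whether the quantification used strand is not given in the sources used here, so the division of reads between these overlapping genes is uncertain. ATF5 has the same limit towards NUP62 on the opposite strand, which moved the other way (110, 110 and 117 TPM against 163, 165 and 189 TPM).

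CEBPB, a C/EBP factor induced downstream of ATF4, missed the threshold narrowly at 7.53, 10.8 and 11.2 TPM against 6.68, 6.72 and 7.67 TPM (log2 fold change 0.42, SE 0.154, adjusted p 0.0502). Its MEN1 shRNA replicate 1 fell within the control range. Without that library its log2 fold change was 0.59 (adjusted p 0.00399). NUPR1, a small stress-induced chromatin protein, and JDP2, an AP-1 repressor, were too low to test: NUPR1 was at 0.106, 0.373 and 0.283 TPM against 0.0599, 0.0233 and 0.018 TPM, and JDP2 did not exceed 0.0686 TPM in any library.

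**Figure D2:**
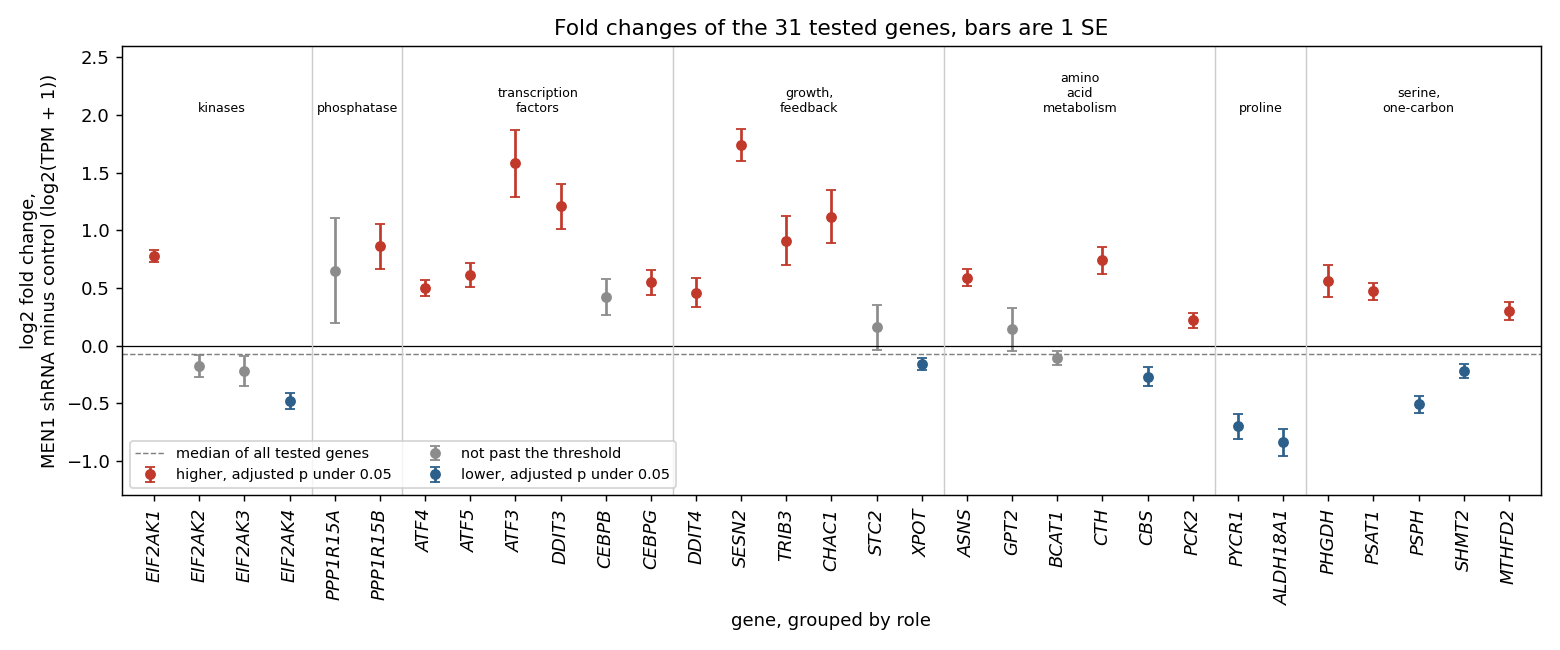
Log2 fold change (MEN1 shRNA minus control, log2(TPM + 1)) of the 31 tested members with bars of 1 SE, in blocks by role; red passed the threshold upward, blue downward, grey did not pass, and the dashed line is the median of all tested genes at -0.07. SESN2 at 1.74 and ATF3 at 1.58 are the highest, and the proline enzymes PYCR1 at -0.70 and ALDH18A1 at -0.84 are the lowest.

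Growth and feedback targets showed the largest rise of the set. SESN2 (sestrin 2; chromosome 1, 28259518 to 28282491), which restrains mTORC1 when leucine is scarce and is also a p53 target, was at 13.8, 19.7 and 18.2 TPM against 4.58, 4.44 and 4.17 TPM. This is a ratio of 3.92 (log2 fold change 1.74, SE 0.139, adjusted p 6.7e-05), with tight controls and no overlap. CHAC1, a glutathione-degrading enzyme used as an ATF4 reporter (chromosome 15, 40952962 to 40956512), was at 20.1, 13.6 and 27.1 TPM against 8.76, 7.10 and 9.56 TPM (log2 fold change 1.12, SE 0.229, adjusted p 0.00442). Here replicate 2, not replicate 1, was the MEN1 shRNA library nearest the controls.

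TRIB3, a pseudokinase that binds ATF4 and CHOP and dampens their activity, was at 8.39, 14.0 and 12.3 TPM against 6.65, 4.20 and 6.18 TPM (log2 fold change 0.91, SE 0.212, adjusted p 0.00837). DDIT4 (REDD1), an mTORC1 inhibitor that glucocorticoids also induce, was abundant in both groups, at 240, 301 and 254 TPM against 215, 201 and 162 TPM (log2 fold change 0.46, SE 0.124, adjusted p 0.0151). Neither gene overlapped between groups. DDIT4 did not pass when all low genes were kept in the test (adjusted p 0.0664).

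XPOT, the exporter of tRNA from the nucleus, was the exception in this block, at 91.0, 90.9 and 93.6 TPM against 98.4, 106 and 103 TPM (log2 fold change -0.16, SE 0.0547, adjusted p 0.0431). That small fall did not pass under 12 of 14 alternatives, among them each omission of a library other than control replicate 1. STC2, a secreted glycoprotein, hovered near 1 TPM in both groups, at 0.795, 1.11 and 1.72 TPM against 1.01, 0.819 and 1.02 TPM (log2 fold change 0.16, SE 0.194, adjusted p 0.518). VLDLR, a lipoprotein receptor that stress raises through ATF4, was below the filter at 0.63, 1.09 and 1.17 TPM against 0.553, 0.67 and 0.194 TPM.

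In amino acid metabolism 3 of 6 members rose and 1 fell (50.0% and 16.7%, beside 22.1% and 31.5% of all genes). ASNS, asparagine synthetase (ENSG00000070669, chromosome 7, 97851677 to 97872542, minus strand), was at 143, 163 and 148 TPM against 95.0, 101 and 105 TPM, a ratio of 1.51 (log2 fold change 0.59, SE 0.0703, adjusted p 0.00035). CTH, which makes cysteine from cystathionine, was at 13.1, 17.4 and 15.4 TPM against 8.53, 8.28 and 9.35 TPM (log2 fold change 0.74, SE 0.117, adjusted p 0.0013). Both had separate groups.

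The enzyme just before CTH in the same pathway, CBS, which joins homocysteine and serine into cystathionine, went the other way, at 137, 123 and 114 TPM against 142, 149 and 161 TPM (log2 fold change -0.27, SE 0.0841, adjusted p 0.0266). CBS has a near-identical copy, CBSL, in the hg38 assembly, and the division of reads with it was not tested. CBS lost the threshold under 9 of 14 alternatives, including without MEN1 shRNA replicate 2 or 3 or without control replicate 2 or 3 (adjusted p 0.0628 to 0.0869 over these 4). PCK2, mitochondrial phosphoenolpyruvate carboxykinase, was at 107, 110 and 97.3 TPM against 88.1, 87.2 and 93.0 TPM (log2 fold change 0.22, SE 0.0656, adjusted p 0.0222). PCK2 lost the threshold under 5 of 14 alternatives: without MEN1 shRNA replicate 2 or without control replicate 1 or 2 (adjusted p 0.0625 to 0.0779), with the replicate block (0.059) and with no mean-variance trend (0.052).

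GPT2, mitochondrial alanine aminotransferase, was at 4.61, 7.61 and 4.71 TPM against 4.56, 4.73 and 5.49 TPM (log2 fold change 0.14, SE 0.183, adjusted p 0.555). The highest value came from MEN1 shRNA replicate 2 alone. BCAT1, the cytosolic branched-chain aminotransferase, was at 118, 111 and 121 TPM against 120, 131 and 126 TPM (log2 fold change -0.11, SE 0.0612, adjusted p 0.182). Groups overlapped in both genes. A RefSeq promoter of BCAT1 carries the letters TGATGCAA at position -48, and the other BCAT1 promoters searched held no match.

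Proline synthesis moved as a pair and downward. ALDH18A1 (chromosome 10, 95605941 to 95656711), which turns glutamate into the proline precursor, was at 89.1, 66.6 and 66.4 TPM against 135, 127 and 135 TPM, 55.9% of the control mean (log2 fold change -0.84, SE 0.115, adjusted p 0.000629). PYCR1 (chromosome 17, 81932384 to 81942412), which makes the last step to proline in mitochondria, was at 95.2, 71.3 and 80.5 TPM against 140, 122 and 138 TPM, 61.8% of the control mean (log2 fold change -0.70, SE 0.109, adjusted p 0.00125). Every MEN1 shRNA library was below every control in both genes. Both are listed among ATF4 targets, and their direction is opposite to that of ATF4 itself and of ASNS in the same libraries.

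The serine pathway split by step. Its first enzymes rose: PHGDH, which commits 3-phosphoglycerate to serine, was at 3.89, 5.19 and 3.96 TPM against 2.63, 2.66 and 2.48 TPM (log2 fold change 0.56, SE 0.136, adjusted p 0.0097). PSAT1, the aminotransferase of the next step (chromosome 9, 78297125 to 78330093), was at 113, 131 and 122 TPM against 84.7, 85.1 and 94.3 TPM (log2 fold change 0.47, SE 0.0747, adjusted p 0.00139). PHGDH was far less abundant than PSAT1 in both groups. Its deposited coverage was 0.535 to 1.17 reads per base, the lowest per TPM of the members.

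PSPH, the phosphatase that releases serine, stood at 13.4, 12.9 and 13.3 TPM beside 18.8, 19.9 and 18.7 TPM and fell (log2 fold change -0.51, SE 0.0736, adjusted p 0.000861). The replicates lay close together in both groups. PSPH shares sequence with the pseudogene PSPHP1, whose level reached up to 80.5% of that of PSPH. Summing both, an alternative chosen after the data were seen, gave 22.6, 19.3 and 24.0 TPM against 32.5, 31.1 and 30.8 TPM and a log2 fold change of -0.50 (adjusted p 0.00258).

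In the mitochondrial one-carbon steps, SHMT2, which splits serine into glycine and a one-carbon unit, was at 148, 136 and 131 TPM against 165, 155 and 163 TPM (log2 fold change -0.22, SE 0.0634, adjusted p 0.0223). MTHFD2, which oxidises that one-carbon unit, was at 77.0, 85.9 and 85.2 TPM against 61.7, 70.2 and 69.5 TPM (log2 fold change 0.30, SE 0.0758, adjusted p 0.0123). These adjacent steps changed in opposite directions, and the groups overlapped in neither. The SHMT2 fall lost the threshold under 8 of 14 alternatives, including without MEN1 shRNA replicate 2 or 3 or without control replicate 1 or 3 (adjusted p 0.066 to 0.0748).

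**Figure D3:**
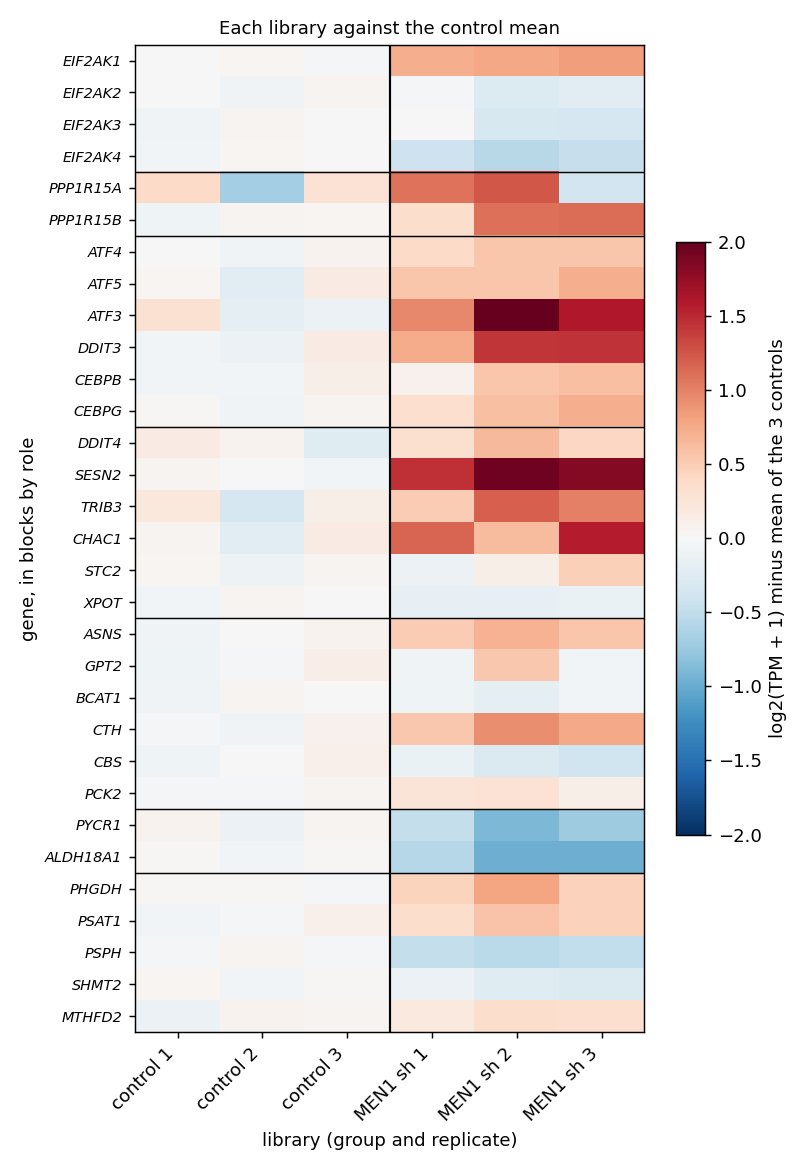
Log2(TPM + 1) of each tested member in each library minus the mean of the 3 control libraries, with colours limited to -2 to 2 and blocks by role. MEN1 shRNA replicate 1 is paler than replicates 2 and 3 in most rows, red or blue, and the row of PPP1R15A shows both colours in each group.

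MEN1 shRNA replicate 1 was the library of its group nearest the controls in 20 of the 24 members that passed, and replicates 2 and 3 in 2 each. The same library was the nearest in 65.2% of all 7657 genes past the threshold. The MEN1 level did not set replicate 1 apart (6.29 TPM, beside 6.44 and 6.88 TPM). Leaving that library out gave 18 members higher and 8 lower.

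Other genes of the pathway were counted from lists outside the set. Of the 8 genes for eIF2 and its exchange factor eIF2B, 1 rose and 4 fell (12.5% and 50.0%, beside 22.1% and 31.5% of all genes). EIF2B1 and EIF2B3, the alpha and gamma subunits of eIF2B, went from 64.0 to 33.1 TPM and from 64.5 to 37.2 TPM in the mean (log2 fold changes -0.94 and -0.78, adjusted p 0.000176 and 0.000767). EIF2S2, the beta subunit of eIF2, rose from 190 to 259 TPM (0.44, adjusted p 0.00134), whereas EIF2S3, the gamma subunit, fell from 189 to 154 TPM (-0.30, adjusted p 0.00375). EIF2S1, which encodes eIF2alpha and was named after its value was seen, was at 138 against 130 TPM (0.08, adjusted p 0.533).

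Among 12 regulators of the kinases and the phosphatase, 2 rose and 5 fell (16.7% and 41.7%, beside 22.1% and 31.5% of all genes). PPP1CA and PPP1CB, catalytic subunits of protein phosphatase 1, rose by 0.58 and 0.41 on the log2 scale (adjusted p 0.000158 and 0.0031), while the catalytic subunit PPP1CC, named after its value was seen, fell from 164 to 134 TPM (-0.29, adjusted p 0.00607). IMPACT, an inhibitor of GCN2, had a log2 fold change of -0.82 (37.6 to 21.0 TPM, adjusted p 0.000169) and ABCE1, a ribosome recycling factor, of -0.57 (adjusted p 0.000531). DELE1, which carries mitochondrial stress to HRI, had -0.42 (adjusted p 0.028) with overlapping groups, and OMA1, the protease that cleaves DELE1, did not pass (-0.07, adjusted p 0.649); these 2 were chosen after their values were seen, because EIF2AK1 rose.

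Of 24 further genes named as ATF4 or CHOP targets, 23 were in the tables by that symbol and 20 were tested. Of these 20, 9 rose and 4 fell, with a median log2 fold change of 0.21. Over all genes tested, 22.1% rose and 31.5% fell, with a median of -0.07. GDF15, a stress hormone and also a p53 target, went from 10.5 to 164 TPM in the mean (a log2 fold change 3.85, adjusted p 3.3e-05), more than any member of the main set. HERPUD1, part of endoplasmic reticulum degradation, rose by 1.96 and SLC7A11, the cystine transporter, by 1.85 (adjusted p 3.4e-05 and 5.4e-05). Against this direction, EIF4EBP1, the translation repressor 4E-BP1, fell from 306 to 112 TPM (-1.45, adjusted p 5.2e-05). CDKN1A, GADD45A and BBC3 in this list, as well as SESN2, are also p53 targets. CDKN1A, named after its value was seen, had a log2 fold change of 2.46 (adjusted p 7.6e-05). The part of p53 in the values of genes that both pathways share was not tested.

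In the rest of serine, glycine and folate metabolism 3 of 14 tested genes rose and 6 fell (median log2 fold change -0.18). These are 21.4% and 42.9%, beside 22.1% and 31.5% of all genes. MTHFD1L, the mitochondrial formate-producing enzyme downstream of MTHFD2 and also in the list of further ATF4 targets, had -0.92 (93.3 to 48.7 TPM, adjusted p 0.000148). GCSH, of the glycine cleavage system, had -1.57 and MTRR, of methionine synthesis, -0.76 (adjusted p 0.000198 and 0.000281).

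The rest of proline, glutamate and asparagine metabolism leaned downward, with a median log2 fold change of -0.86. There 10 of 14 tested genes were lower and 2 higher (71.4% and 14.3%, beside 31.5% and 22.1% of all genes). GPT, the cytosolic counterpart of GPT2, went from 75.3 to 15.3 TPM (-2.28, adjusted p 0.000115), BCAT2, the mitochondrial counterpart of BCAT1, from 88.5 to 29.2 TPM (-1.59, adjusted p 8.4e-05), GOT2 from 201 to 106 TPM (-0.93, adjusted p 9.6e-05) and ASL from 46.9 to 21.7 TPM (-1.08, adjusted p 5.4e-05). PYCR3, a proline enzyme outside the set that was chosen after its values were seen for comparison with PYCR1, fell from 19.7 to 11.2 TPM (-0.78, adjusted p 0.00178).

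The other branches of the unfolded protein response, driven by IRE1 and ATF6, had 2 of 18 genes higher and 6 lower (11.1% and 33.3%, median log2 fold change -0.09), near the shares of all genes in the downward direction and below them upward. DNAJB9, an endoplasmic reticulum cochaperone, rose by 1.23 (8.91 to 22.3 TPM, adjusted p 0.000121). SDF2L1, PDIA6 and PDIA4, which serve folding in that compartment, had log2 fold changes of -0.78, -0.62 and -0.57 (adjusted p 9.7e-05, 0.00013 and 0.00218). The main chaperone HSPA5 (BiP), named after its value was seen, was at 211 against 241 TPM (-0.19, adjusted p 0.0332). CALR, also named after its value was seen, was the other gene of this list that rose, at 1450 against 1080 TPM (0.42, adjusted p 0.00482).

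Among 14 other factors with known influence on amino acid synthesis genes, 13 were tested. Of those tested, 3 rose and 4 fell (23.1% and 30.8%, beside 22.1% and 31.5% of all genes). MYC, which drives many biosynthetic genes, had the largest change, from 232 to 74.1 TPM (-1.65 in log2, adjusted p 6.4e-05). BACH1, a heme-sensing repressor, rose by 0.62, CREBBP, an acetyltransferase, by 0.44 and KMT2A, which encodes MLL1, by 0.44 (adjusted p 0.000399, 0.000933 and 0.00376). Whether any of these bears on the members was not tested.

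**Figure D4:**
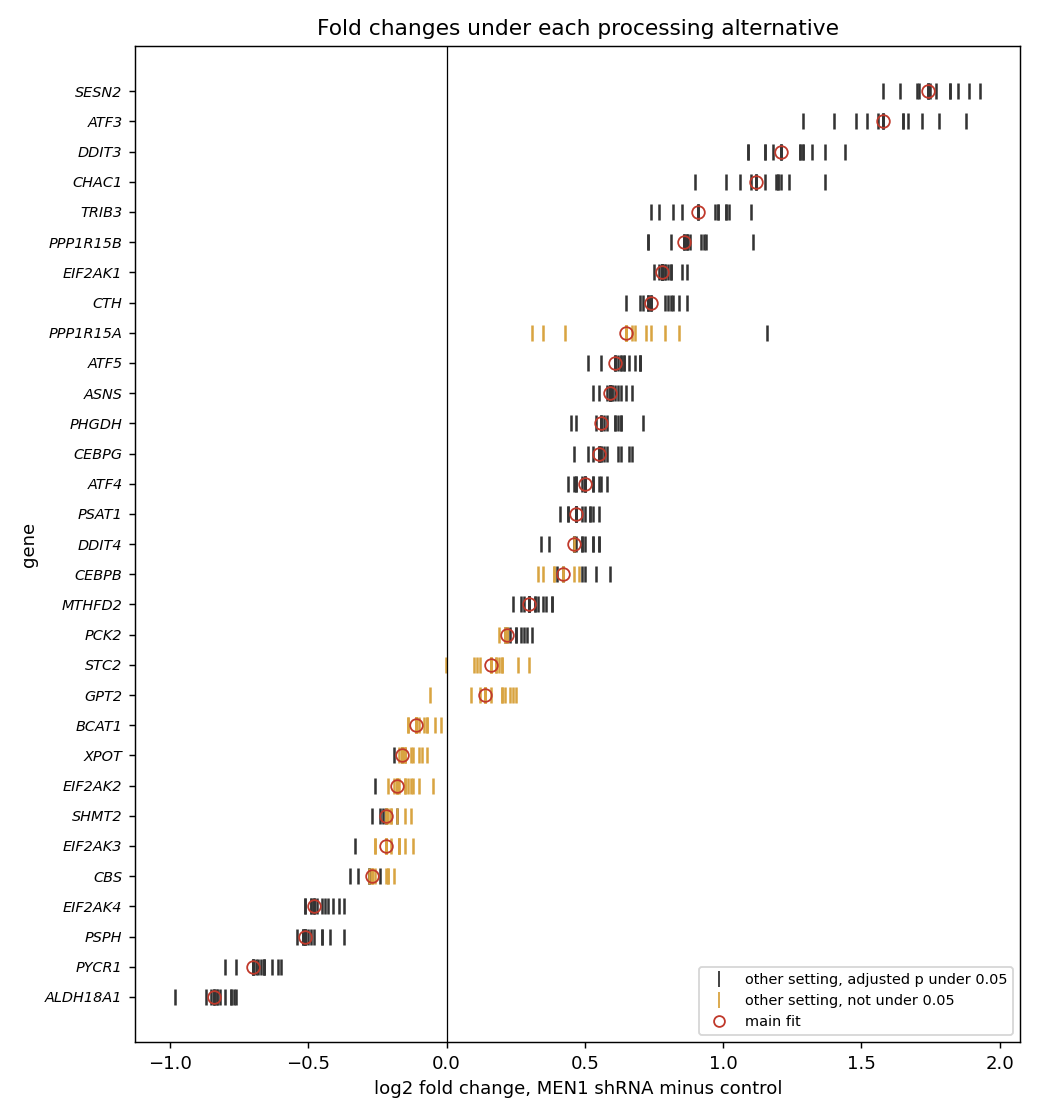
Log2 fold change of each tested member in the main analysis (open red circle) and under each processing alternative (ticks; dark where the adjusted p stayed under 0.05, ochre where it did not), sorted by the main value. The ticks of ALDH18A1 run from -0.98 to -0.76 and those of SESN2 from 1.58 to 1.93, all dark, while XPOT, CBS, SHMT2 and PCK2 carry ochre ticks near 0.

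Across the alternatives, 15 of the 17 rises and 4 of the 7 falls kept direction and threshold every time. The rises that did not were DDIT4 and PCK2. The falls that did not were XPOT, CBS and SHMT2. EIF2AK4, PYCR1, ALDH18A1 and PSPH were the falls that always passed. Median-of-ratios scaling moved the median of all genes by 0.078 and gave 18 members higher and 4 lower; over all genes it moved the share of higher calls from 41.2% to 49.5%.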

How the data were processed

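Poly(A)-selected, strand-specific RNA libraries of 3 MEN1 shRNA and 3 control shRNA HUDEP-2 samples were quantified by the authors. Per the submitters' processing notes, FastQC, Trimmomatic, STAR 2.7.1a, Picard 2.20.4 and StringTie 2.0.4 were used with the hg38 build; for the annotation and the strand setting, nothing is given in the sources used here. The deposited gene tables give TPM, which the authors computed with StringTie as length-scaled abundance that sums to the same total in each library, FPKM, which the authors computed per length and aligned fragments, and coverage, the authors' mean read depth per base of a gene. Read counts were not used here.

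From these, 1 negative TPM residue was set to 0, genes with TPM of at least 1 in at least 3 libraries were kept, and log2(TPM + 1) was fitted with limma 3.58.1 (trend, R 4.3.3) on both groups without a replicate block. Benjamini-Hochberg adjustment covered all 14294 tested genes, with a threshold of 0.05. Every "adjusted p" is from this test. The script was tested on simulated data. Alternatives changed the pseudocount to 0.1, the filter, the unit, the scaling, the variance trend, the block, overlapping or pseudogene rows, and left out each library. Promoters were RefSeq sequences on GRCh38.p14. Named were all members and, from each further list, up to 4 genes with the smallest adjusted p among those that passed; other genes are said to be chosen after their values were seen, and 2 genes of the further lists are not reported here. The members and lists were chosen with earlier results of these data known.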

Additional observations from a re-analysis of the deposited data

How the results depend on the processing

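The number of members that rose was 16 to 18 under every alternative (17 in the main analysis). The number that fell was 7, and it was 4 with no filter on low values, with TPM recomputed after removal of globin and mitochondrial genes, with median-of-ratios scaling and with no mean-variance trend; leaving out 1 library gave 4 to 8, with 4 without MEN1 shRNA replicate 2, MEN1 shRNA replicate 3 or control replicate 3. The cause of these differences was not tested. The sign changed in STC2, at -0.0011 without MEN1 shRNA replicate 3 (-0.0011 to 0.30 over the omissions), and in GPT2, at -0.06 without MEN1 shRNA replicate 2 (-0.06 to 0.25); neither passed the test in any of these. CEBPB, at an adjusted p of 0.0502, passed with FPKM (0.0392), median-of-ratios scaling (0.026), globin-free TPM (0.031), quantile normalization (0.0226) and the replicate block (0.0449). Same-numbered libraries of the groups did not deviate together (correlations 0.0171, -0.0265 and -0.0124). That does not exclude a pairing by number, and the labels do not say whether same-numbered libraries were handled together. With the replicate block 17 members were higher and 5 lower, and 7012 genes passed in place of 7657. The planned sum of CBS and CBSL was not run, since no row named CBSL was used here. Depth limits JDP2, NUPR1, VLDLR, PHGDH and ATF3, the members whose deposited coverage was below 1 read per base in at least 1 library.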
